A study of Homo sapiens with 4 samples.

Results

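The RNA levels of 10 genes of the NF-kB pathway were followed in T47D cells after exposure to baicalein. They were chosen by symbol from the deposited count table, where all 10 had a row among 20515. NFKB1, NFKB2, RELA and RELB code for subunits of the transcription factor. NFKBIA, NFKBIE and TNFAIP3 code for inhibitors, and ICAM1, IER3 and TRAF1 are known target genes. T47D is a human breast cancer cell line of the luminal type, and baicalein is a flavonoid from plants that is known to inhibit lipoxygenases. The 4 poly(A) RNA libraries were 2 from baicalein-treated T47D cells and 2 from untreated control T47D cells. The comparison asked how baicalein changes gene expression. No source used here gives the dose, the duration or the vehicle. No label says that replicate libraries came from separate cultures, so the p-values measure only how far these samples spread, and that spread may be technical.

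NF-kB proteins act as dimers. Complexes of RELA with the p50 product of NFKB1 form the canonical arm, which is held in the cytoplasm by inhibitors of the IkB family and freed when the IkB kinase complex marks those inhibitors for degradation. RELB with the p52 product of NFKB2 forms the non-canonical arm, which depends on the kinase encoded by MAP3K14. Several inhibitors, among them NFKBIA and TNFAIP3, are themselves NF-kB targets, so that the pathway carries its own feedback. In luminal breast cancer cells the pathway is known for its crosstalk with the estrogen receptor.

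Of the 10 genes, 8 rose and 0 fell in baicalein-treated cells, and 2, NFKBIE and TRAF1, did not pass the test (edgeR quasi-likelihood test, Benjamini-Hochberg adjusted p under 0.05 over 18369 tested genes). The count of falls was also 0 at an unadjusted p under 0.05, in DESeq2 and in limma-voom. RELB rose 6.65-fold, TNFAIP3 6.12-fold, ICAM1 4.62-fold and IER3 3.16-fold, while the other 4 rose less than 2-fold. Over all tested genes, 75% were called in either direction, 37.4% as higher and 37.6% as lower, so that a call by itself was the usual outcome in this comparison. At least 2-fold rises were called in 12.2% of all tested genes and in 4 of the 10. The median log2 fold change of the 10 was 0.82, against 0.002 over all tested genes (median size regardless of sign, 0.57). Both baicalein libraries lay above both controls in 8 of the 10, against 43.4% of all tested genes, and below both controls in 1, NFKBIE, against 43.5%. The 10 genes were chosen with earlier results of these data known. Their contrast with all tested genes is thus a description and may follow from that choice. Against a 1.5-fold change 6 of the 10 passed, and those lost were RELA and NFKBIA. All fold changes are baicalein over control, and levels are counts scaled to library size (CPM) with TMM factors.

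**Figure D1:**
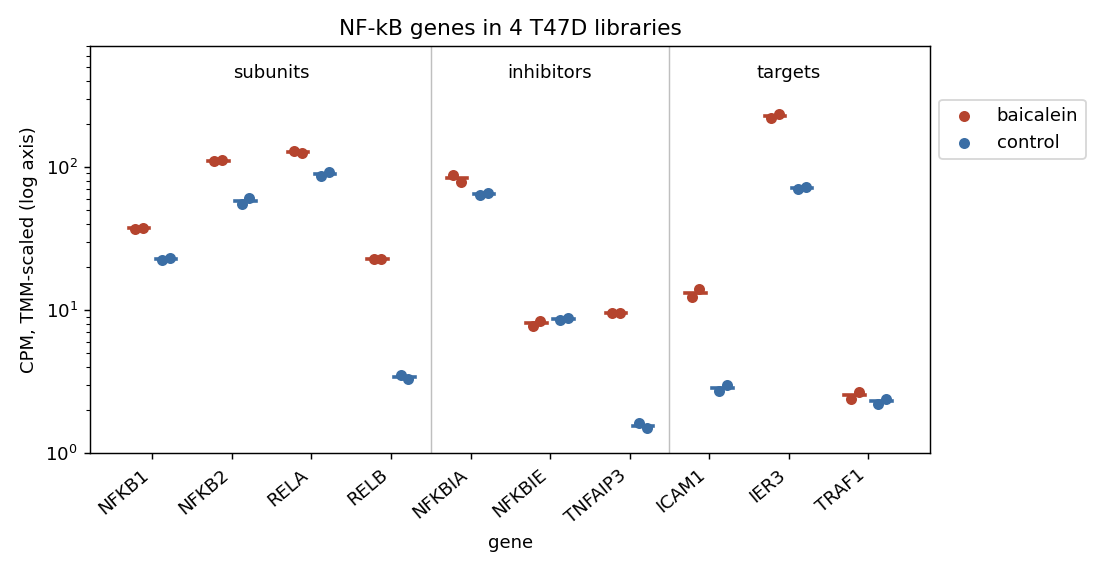
Level of each NF-kB gene in CPM on a log axis, with 1 point per library and a bar at the mean of each group of 2 libraries. Baicalein libraries lie above both controls in 8 genes, lie just below them in NFKBIE and overlap them in TRAF1.

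Total counts were 56732569 and 38597207 in baicalein 1 and 2, and 45341857 and 45618604 in control 1 and 2. A floor of 3 counts stands for 0.0548 to 0.0805 CPM and covers counting error only. The luminal markers KRT8, KRT18, KRT19, EPCAM, ESR1, PGR, GATA3 and FOXA1 were all detected in every library. Of these 8 markers, 7 were called lower with baicalein, beside 37.6% of all tested genes. Their summed level was 6236 to 6331 CPM in baicalein libraries and 12330 to 13610 CPM in controls. Leukocytes are known to express many NF-kB genes. PTPRC, which codes for the pan-leukocyte antigen CD45, had 5 and 6 counts with baicalein and 0 in both controls. The leukocyte markers CD3E, MS4A1, CD14, LYZ and CSF1R and all 4 endothelial markers had no row in the table and were not analysed here. Of 5 fibroblast markers, COL1A1 had 139.8 to 149.9 CPM with baicalein and 90.0 to 100.4 CPM in controls, and its partner chain COL1A2 had at most 5 counts in any library. The part of these shifts in the results below was not tested. In RNA from whole cultures, fewer cells that express a gene and less RNA per cell cannot be told apart.

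The DNA element that NF-kB dimers bind is shown for the genes whose promoter windows hold it, since several of these genes feed back on the pathway. RefSeq promoter windows (GRCh38.p14, 250 bases before to 50 after a start) were at hand for 7 of the 10 genes, in 13 windows. NFKB1, NFKB2, NFKBIA and TNFAIP3 had at least 1 match to the kappaB consensus on either strand, which is 4 of 7 genes. Among tested genes with a window the share was 8.73%, and among those with 3 windows, as NFKB2 and TRAF1 have, it was 16.6%. Among the other pathway genes listed further below, tested or not, 27 of 79 with a window had a match (34.2%). A match is thus not particular to the 10 genes. A match is a run of letters and not a measured binding site. Each stretch below has 30 bases, runs 5′ to 3′ on the gene's strand and has the matching bases in capitals.
NFKB1, chr4:102501300-102501329, plus strand: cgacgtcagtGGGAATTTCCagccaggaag
NFKB2, chr10:102394462-102394491, plus strand: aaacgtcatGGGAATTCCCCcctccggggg
NFKB2, chr10:102394490-102394519, plus strand: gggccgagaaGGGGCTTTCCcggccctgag
NFKB2, chr10:102395519-102395548, plus strand: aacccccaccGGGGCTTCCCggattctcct
NFKB2, chr10:102395674-102395703, plus strand: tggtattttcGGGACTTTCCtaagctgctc
NFKBIA, chr14:35404811-35404840, minus strand: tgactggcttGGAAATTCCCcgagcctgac
TNFAIP3, chr6:137867188-137867217, plus strand: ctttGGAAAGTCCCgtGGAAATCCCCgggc

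The NFKB1 match began 49 bases before the start of its window's transcript and the NFKBIA match 81 bases before. TNFAIP3 had 2 matches side by side, beginning 67 and 55 bases before the start. In NFKB2 the matches belonged to 2 alternative starts, at 107 and 78 bases before one and at 176 and 21 bases before the other. By GENCODE release 29, the NFKBIA stretch lay outside the gene and the NFKB1 stretch touched the first exon of NFKB1 by 1 base. An exon of another gene, AF213884.3, also overlapped the bases around the NFKB1 match. The first 2 NFKB2 stretches and the TNFAIP3 stretch lay within exons of other transcripts of the same gene, the third NFKB2 stretch was intronic, and the fourth had 11 exonic bases. All 4 genes with a match rose, with log2 fold changes of 0.37 to 2.61, beside 37.4% called higher over all tested genes. Of the 3 genes without these letters in their windows, RELA and ICAM1 rose and TRAF1 did not pass. RELB and IER3, which rose, and NFKBIE, which did not pass, had no window. A link between the letters and the rises was not tested.

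Among the subunits, RELB (ENSG00000104856, chromosome 19, positions 45001430 to 45038198 of GRCh38) codes for the activating subunit of the non-canonical arm. Its level was 22.7 and 22.8 CPM in baicalein libraries, against 3.53 and 3.32 CPM in controls. The baicalein libraries were nearly equal and far above both controls, and the log2 fold change was 2.73 (SE 0.09, adjusted p = 1.49e-17). That value lay at the 98th percentile of all tested genes. NFKB2 (ENSG00000077150, chromosome 10, positions 102394110 to 102402529), which codes for the p100 precursor of p52, had 109 and 111 CPM with baicalein, against 54.9 and 60.5 CPM in controls. The groups did not overlap, as was true of 86.9% of all tested genes, and the log2 fold change was 0.94 (SE 0.05, adjusted p = 6.41e-14).

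The canonical subunits moved less. NFKB1 (ENSG00000109320, chromosome 4, positions 102501329 to 102617302), which codes for the p105 precursor of p50, had 37.0 and 37.5 CPM in baicalein libraries and 22.3 and 23.2 CPM in controls. Its log2 fold change was 0.71 (SE 0.06, adjusted p = 1.32e-10), with both baicalein libraries above both controls. For RELA (ENSG00000173039, chromosome 11, positions 65653596 to 65663094, minus strand), which codes for the p65 subunit, the levels were 129 and 125 CPM with baicalein, against 86.6 and 92.1 CPM without. RELA had the smallest rise of the 4 subunits, and its log2 fold change was 0.51 (SE 0.04, adjusted p = 4.25e-10). Against a 1.5-fold change RELA did not pass (adjusted p = 1).

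REL, the fifth gene of the family and not one of the 10, had 23.6 and 24.4 CPM with baicalein, against 20.3 and 19.3 CPM in controls, and a log2 fold change of 0.28. Divided by exon length, the 5 family genes together had 63.1 and 63.2 CPM per kb in baicalein libraries and 34.4 and 36.6 CPM per kb in controls. RELB made up 11.9% of that sum in each of baicalein 1 and 2, against 3.39% and 2.99% in control 1 and 2. RELA made up 37.3% and 36.3% with baicalein, against 46.13% and 46.05% in controls. For NFKB2 the shares were 38.6% and 39.4% with baicalein and 35.6% and 36.8% in controls, and for NFKB1 9.37% and 9.49% with baicalein and 10.4% and 10.1% in controls. REL held 2.84% and 2.93% with baicalein, against 4.49% and 4% in controls. RELA was thus the most abundant family transcript per length in controls, while NFKB2 stood just above it with baicalein. That change of order depends on the exon lengths, which take no account of which transcripts the cells use. In CPM not divided by length, RELA lay above NFKB2 in both groups, with 129 and 125 against 109 and 111 CPM with baicalein. The shares within the family are given as a description, with no test.

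**Figure D2:**
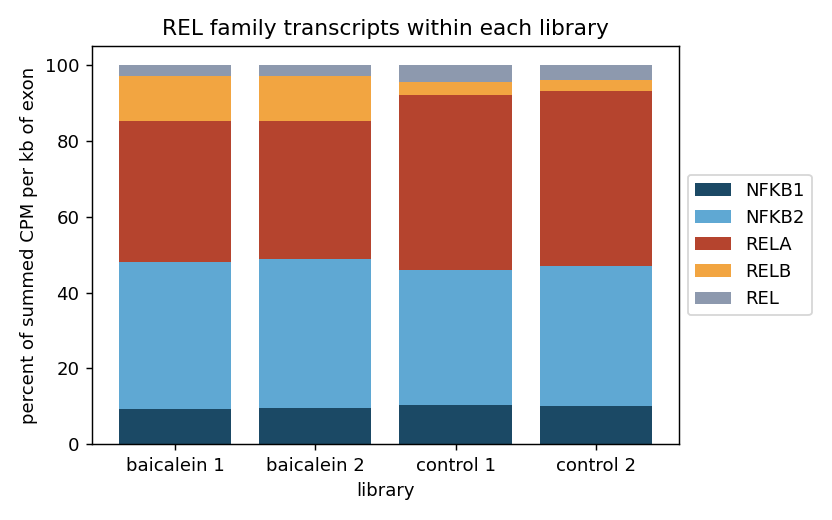
Share of each REL family gene in the summed CPM per kb of exon, in percent, for each library. The RELB segment is 11.9% in both baicalein libraries and 2.99% to 3.39% in the controls, and the RELA segment is smaller in the baicalein libraries.

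The inhibitors did not move together. TNFAIP3 (ENSG00000118503, chromosome 6, positions 137867188 to 137883312) codes for A20, a ubiquitin-editing enzyme that limits signalling to the IkB kinases. Both baicalein libraries had 9.56 CPM, against 1.63 and 1.49 CPM in controls. The rise was 2.61 on the log2 scale (SE 0.12, adjusted p = 6.32e-15). NFKBIA (ENSG00000100906, chromosome 14, positions 35401511 to 35404749, minus strand) codes for IkB-alpha, the main cytoplasmic anchor of the RELA and p50 dimer. NFKBIA had 87.1 and 78.8 CPM with baicalein and 63.4 and 65.5 CPM in controls. That rise was small, and its log2 fold change was 0.37 (SE 0.05, adjusted p = 8.98e-07), and did not pass against a 1.5-fold change (adjusted p = 1).

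NFKBIE (ENSG00000146232, chromosome 6, positions 44258166 to 44265788, minus strand) codes for IkB-epsilon, another cytoplasmic anchor. Its level was 7.79 and 8.38 CPM with baicalein and 8.55 and 8.87 CPM in controls. The log2 fold change was -0.11 (SE 0.09, adjusted p = 0.269), so a fall was not called. With library totals in place of TMM factors, which moved the median of all tested genes to -0.10, NFKBIE was called lower (-0.22, adjusted p = 0.0382).

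Of the target genes, ICAM1 (ENSG00000090339, chromosome 19, positions 10270835 to 10286615) codes for a cell adhesion molecule that leukocytes bind. ICAM1 had 12.4 and 14.01 CPM in baicalein libraries and 2.71 and 2.98 CPM in controls. The groups were well apart, and its log2 fold change was 2.21 (SE 0.11, adjusted p = 1.58e-14). IER3 (ENSG00000137331, chromosome 6, positions 30743199 to 30744554, minus strand), an early response gene whose product modulates cell survival, had 218 and 233 CPM with baicalein, against 70.0 and 73.0 CPM in controls. Its log2 fold change was 1.66 (SE 0.05, adjusted p = 9.86e-19), the smallest adjusted p of the 10 genes. TRAF1 (ENSG00000056558, chromosome 9, positions 120902393 to 120929173, minus strand) codes for an adaptor of tumour necrosis factor receptors. TRAF1 had 2.38 and 2.68 CPM with baicalein and 2.20 and 2.40 CPM in controls. Those ranges overlapped, and a log2 value of 0.13 (SE 0.16, adjusted p = 0.474) did not pass.

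Exons of 2 of the targets are shared with antisense genes, and no source used here says if strand was used in counting. IER3-AS1 overlaps 26.5% of the exon bases of IER3 and had 3 and 6 counts with baicalein and 3 and 5 in controls. The antisense gene AC011511.5 overlaps 22% of those of ICAM1 and had 5 and 2 counts with baicalein and 5 and 6 in controls. TNFAIP3 and RELA share 1.9% and 0.2% of their exon bases with genes on the opposite strand.

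**Figure D3:**
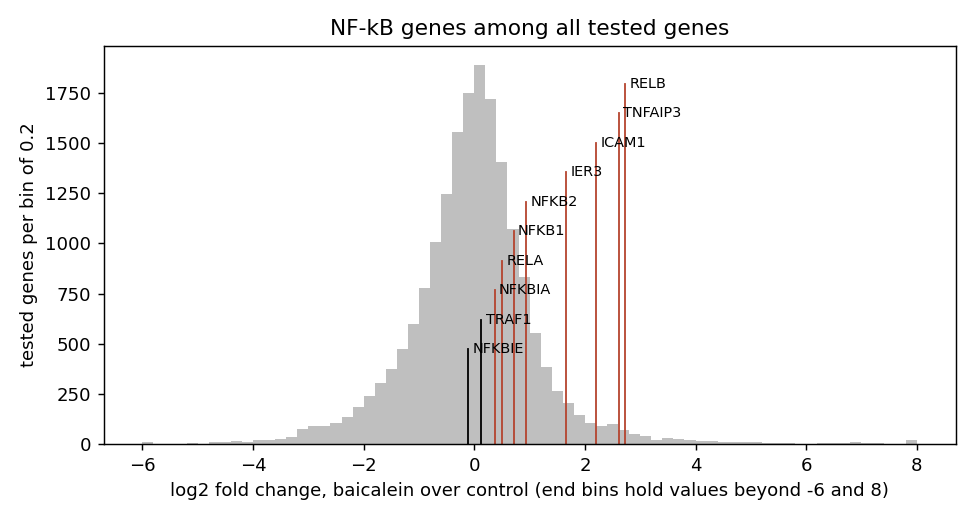
Histogram of log2 fold changes (baicalein over control) of all 18369 tested genes in bins of 0.2, with a line at each NF-kB gene. RELB, TNFAIP3, ICAM1 and IER3 lie in the right flank, at 2.73, 2.61, 2.21 and 1.66, and the black lines mark NFKBIE and TRAF1, which did not pass.

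Per exon length, IER3 was the most abundant of the 10 transcripts in both groups, with 166 CPM per kb in baicalein libraries and 52.7 CPM per kb in controls. NFKBIA came next, with 35.0 CPM per kb with baicalein and 27.2 CPM per kb in controls. In baicalein libraries the order went on with NFKB2 (24.6), RELA (23.3), RELB (7.51), NFKB1 (5.95), ICAM1 (3.56), NFKBIE (3.13), TNFAIP3 (1.89) and TRAF1 (0.392), all in CPM per kb. In controls it was RELA (16.4), NFKB2 (12.9), NFKB1 (3.63), NFKBIE (3.37), RELB (1.13), ICAM1 (0.767), TRAF1 (0.357) and TNFAIP3 (0.309). RELB thus stood above NFKB1 and NFKBIE with baicalein and below both in controls, and TNFAIP3 stood above TRAF1 with baicalein and below it in controls. Neighbours in either order did not overlap between the 2 libraries of a group, though the exon lengths are from GENCODE and take no account of which transcripts the cells use.

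Other genes of the pathway, 88 in 7 lists, were counted beside these. Of the 66 that were tested, 35 rose and 21 fell, and 10 did not pass, with a median log2 fold change of 0.31. At least 2-fold rises were called in 11 of the 66 and at least 2-fold falls in 8 of the 66. Among all tested genes the shares with such rises and falls were 12.2% and 15.2%. Of the rises, those of LTB, LCN2, CXCL3 and PLAU came from genes that passed the filter on counts only through their baicalein libraries. Of the falls, that of TNFRSF1B came from a gene that passed only through its control libraries. The filter thus favoured the direction of these calls. The other 22 of the 88 genes had no row or too few counts. Over all tested genes, 37.4% were called higher and 37.6% lower. The counts by role that follow stand beside those shares, and no list was tested as a set.

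**Figure D4:**
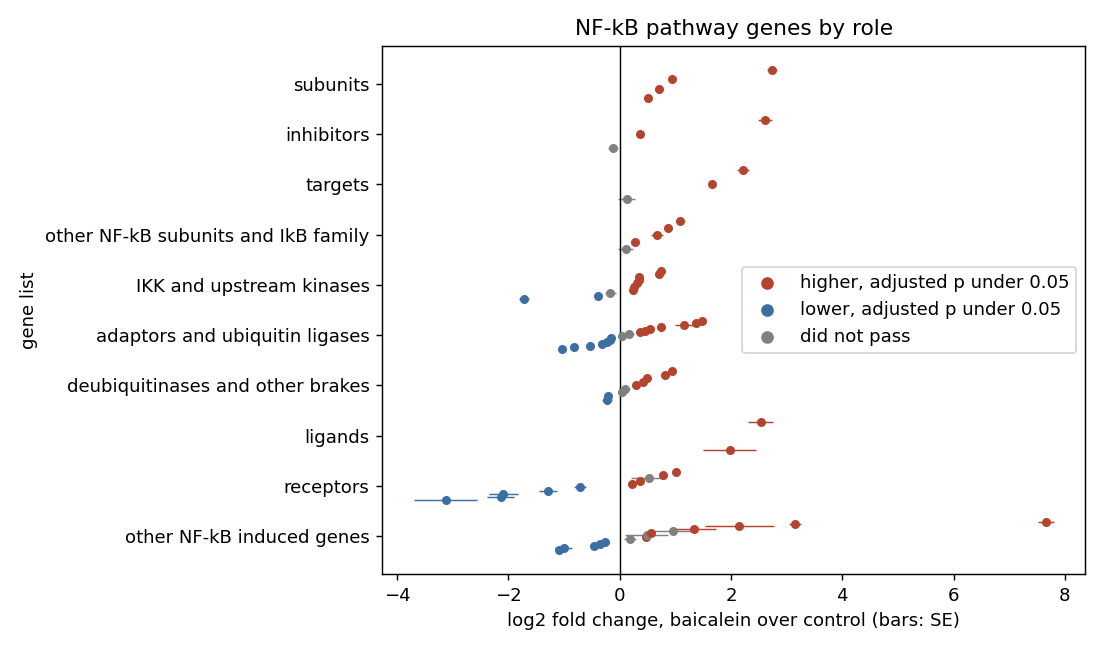
Log2 fold change (baicalein over control, bars show the SE) of every tested gene in the 3 groups of NF-kB genes and the 7 lists of other pathway genes. Subunits all lie right of 0, whereas adaptors and receptors spread to both sides, and LCN2 is the point at 7.66.

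Ligand transcripts were scarce. Of 8 ligand genes 2 were tested and both rose. TNF, the gene of tumour necrosis factor, had 2.78 and 2.36 CPM with baicalein, against 0.466 and 0.425 CPM in controls, with 20 to 22 counts in each control. The log2 fold change of TNF was 2.53 (SE 0.23, adjusted p = 1.05e-09). LTB, which codes for lymphotoxin beta, had 22 and 17 counts with baicalein and 5 in each control (log2 fold change 1.98, SE 0.47, adjusted p = 0.000692). LTB was named after its values were seen, and it passed the filter on counts only through its baicalein libraries. A rise was thus the only change it could show.

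Of 10 tested receptor genes, 4 were higher and 5 lower, beside 37.4% and 37.6% of all tested genes. TNFRSF1A, which codes for the broadly expressed receptor of tumour necrosis factor, had 46.0 and 48.1 CPM with baicalein, against 23.1 and 23.6 CPM in controls (log2 fold change 1.01). LTBR, which codes for the lymphotoxin beta receptor, an input of the non-canonical arm, had 54.8 and 53.5 CPM with baicalein and 31.7 and 31.9 CPM in controls (0.77). Other receptors that feed the non-canonical arm fell. CD40 had 1.44 and 1.40 CPM with baicalein, against 3.41 and 3.55 CPM in controls (log2 fold change -1.29). TNFRSF11A, the gene of RANK, had 0.530 and 0.430 CPM with baicalein and 2.37 and 1.94 CPM in controls (-2.14). TNFRSF13C, the gene of the BAFF receptor, had 0.567 and 0.376 CPM with baicalein and 1.69 and 2.47 CPM in controls (-2.09). All 3 were low in every library.

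Of 16 adaptors and ubiquitin ligases, 7 rose, 7 fell and 2, TRAF5 and RNF31, did not pass. Over all tested genes, 37.4% were called higher and 37.6% lower. RBCK1, which codes for the HOIL-1 subunit of the linear ubiquitin ligase, had 346 and 333 CPM with baicalein, against 120 and 123 CPM in controls (log2 fold change 1.48, SE 0.05). Its partners did not share that rise. RNF31, the gene of the catalytic subunit, had 0.040 on the log2 scale (SE 0.055, adjusted p = 0.523), turning to -0.064 with library totals, and SHARPIN fell by 0.23. BCL10, an adaptor gene of antigen receptor signalling, had 25.4 and 25.1 CPM with baicalein and 10.2 and 9.23 CPM in controls (1.38). IRAK2, a gene of interleukin-1 receptor signalling, had 2.91 and 2.79 CPM with baicalein and 1.14 and 1.40 CPM in controls (1.16). TRAF2, which codes for an adaptor of tumour necrosis factor receptors and a brake on MAP3K14, had 26.3 CPM in each baicalein library, against 51.1 and 56.5 CPM in controls (log2 fold change -1.03, SE 0.06). TRAF5 had a log2 fold change of 0.17 (adjusted p = 0.0557). It was called without control 1 (0.29, adjusted p = 0.000866), as well as with the replicate number as a block and under 2 other settings.

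Among 10 genes of the IkB kinases and the kinases upstream, 7 rose, 2 fell and 1 did not pass. The shares over all tested genes were 37.4% called higher and 37.6% called lower. The core kinase genes CHUK, IKBKB and IKBKG had log2 fold changes of 0.24, 0.31 and 0.26. TAB2, an adaptor of the kinase TAK1, had 169.6 and 169.7 CPM with baicalein, against 103 and 104 CPM in controls (0.71). IKBKE, which codes for a kinase related to the core complex, had 4.33 and 4.38 CPM with baicalein and 13.95 and 14.6 CPM in controls, the largest fall in this list (log2 fold change -1.72, SE 0.09, adjusted p = 1.18e-13). MAP3K14, the kinase gene of the non-canonical arm, had 5.83 and 6.31 CPM with baicalein and 7.05 and 6.55 CPM in controls. The log2 fold change, -0.17 (SE 0.10, adjusted p = 0.135), did not pass, though with library totals it was -0.27 (adjusted p = 0.0206). Reads of IKBKG can be shared with its near-identical pseudogene, which makes its value uncertain.

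In the rest of the IkB family and the subunits, 4 of 5 genes rose and NFKBID did not pass (log2 fold change 0.11, adjusted p = 0.474). BCL3, which codes for a nuclear IkB protein that works with p50 and p52, had 23.0 and 20.7 CPM with baicalein, against 9.99 and 10.6 CPM in controls (1.09). NFKBIB, the gene of IkB-beta, had 39.9 and 38.8 CPM with baicalein and 21.1 and 22.2 CPM in controls (0.86). Of 9 tested genes for deubiquitinases and other brakes, 5 rose, 2 fell and 2 did not pass. The counts of both lists stand beside 37.4% called higher and 37.6% called lower over all tested genes. TAX1BP1, a partner gene of TNFAIP3, had 305 and 315 CPM with baicalein, against 181 and 173 CPM in controls (0.81). OTULIN, which codes for a linear deubiquitinase, had a log2 fold change of 0.035 (adjusted p = 0.545), and ZC3H12A, an RNase gene, 0.092 (adjusted p = 0.418). With library totals these became -0.068 and -0.012, and ZC3H12A was at -0.077 without baicalein 1.

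Of 27 other genes that NF-kB is known to induce, 14 were tested, with 6 higher, 5 lower and 3 not passing. The other 13 were not tested. Over all tested genes, 37.4% were called higher and 37.6% lower. Of the 6, LCN2, CXCL3 and PLAU passed the filter on counts only through their baicalein libraries, which favours a rise. LCN2, which codes for the siderophore carrier lipocalin, had 2065 and 1506 counts with baicalein and 11 and 7 in controls (log2 fold change 7.66, SE 0.14, adjusted p = 5.39e-22). IRF1, a transcription factor gene shared with the interferon response, had 21.4 and 23.4 CPM with baicalein, against 2.24 and 2.79 CPM in controls (3.15, SE 0.11, adjusted p = 1.80e-17). SOD2, the gene of the mitochondrial superoxide dismutase, went the other way, with 32.9 and 32.0 CPM with baicalein and 70.1 and 67.4 CPM in controls (log2 fold change -1.08, SE 0.05). CD83, a gene of immune cell activation, had 2.07 and 2.15 CPM with baicalein, against 4.78 and 3.68 CPM in controls (-1.01). BCL2L1, which codes for the survival protein BCL-XL, had 142 and 143 CPM with baicalein and 167 and 175 CPM in controls (-0.26). BIRC3, which codes for an inhibitor of apoptosis, did not pass (0.19, adjusted p = 0.12), but was called without control 1 (0.32, adjusted p = 0.0158).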

How the data were processed

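The deposited table gives unscaled whole-number counts for each gene and library, and its smallest row total was 10. No source used here says if these are rounded RSEM estimates. STAR 2.7.8a, RSEM 1.3.3 and build GRCh38 are named in the submitters' processing notes, without their roles. The table holds 0 columns of other samples. Rows were named from the reference names table, and SOD2 by its GENCODE 29 identifier. Columns were matched to samples by description, and groups and replicate numbers came from titles.

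The test of these counts was that of edgeR 4.0.16, run in R 4.3.3 (robust quasi-likelihood fit over all 4 libraries, no covariates, TMM scaling, filterByExpr with a minimum count of 10 and total of 15). The filter left out 2146 genes. Adjusted p-values are Benjamini-Hochberg over the tested genes, and an SE is the log2 fold change divided by the square root of F. Replicates differed by more than sampling noise (mean chi-square per gene 2.43 with baicalein and 9.61 in controls). Exon lengths and coordinates are from GENCODE 29. The fits were also tested on simulated counts in which few genes were changed. That test does not show how the fits behave when most genes are called, as here. Alternatives were other scalings and filters, DESeq2 1.42.0, limma-voom (limma 3.58.1), edgeR's test against a fold of 1.5, a block for the replicate number, and each library left out in turn.

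The 10 genes and the lists were chosen with earlier results of these data known. In each list the text names called genes with at least a 2-fold change and a mean of at least 1 CPM (at most 5), the called gene with the most counts and genes above 1 CPM that did not pass. CHUK, IKBKB, IKBKG, SHARPIN, REL and the genes below 1 CPM were named after their values were seen. 1 marker of the lists is not reported here.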

Additional observations from a re-analysis of the deposited data

How the results depend on the processing

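All 10 NF-kB genes kept their direction under all 13 alternatives, and the 8 calls were lost only for RELA and NFKBIA in the test against a 1.5-fold change. Under it 3090 genes were higher and 3581 lower in all, and 18 and 9 of the other pathway genes. Library totals gave 1 of the 10 as lower (NFKBIE) and turned the direction of RNF31 (-0.064), OTULIN (-0.068) and ZC3H12A (-0.012), none of which passed. Without a TMM factor all genes split into 5928 higher and 7735 lower. ZC3H12A ranged from -0.077 (without baicalein 1) to 0.23 (without baicalein 2). Leaving out 1 library gave 6128 to 6944 genes higher and 6294 to 6896 lower, and always 8 and 0 of the 10. Of the 66 other pathway genes tested, 59 to 66 kept direction and call when a library was left out. The spread of a group reduced to 1 library is then taken from the pair in the other group. By the labels, same-numbered libraries share only a number. The correlation of their deviations over genes was 0.02, which includes counting noise and cannot tell whether they share a culture or a day. With the replicate number as a block 6894 genes were higher and 6909 lower, and again 8 and 0 of the 10. With 2 libraries a group, small changes such as that of TRAF1 (SE 0.16, from 100 to 130 counts a library) are poorly bounded.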

Other observations

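Chemokine genes that are textbook NF-kB targets had at most 18 counts in any library. Of those with a row, CXCL3 and CCL5 were tested, and CXCL8, CCL20 and CCL2 had too few counts. CXCL3 and CCL5 passed the filter on counts only through their baicalein libraries, which favours a rise. CXCL3 had 18 and 9 counts in baicalein 1 and 2, against 1 and 5 in controls, and was called higher in edgeR's quasi-likelihood test (log2 fold change 2.15, SE 0.62, adjusted p = 0.00364). That call was lost in DESeq2 (2.17, adjusted p = 0.0729), without baicalein 1 (1.88, adjusted p = 0.0944) and without control 1 (1.43, adjusted p = 0.0798), and the value was 3.63 without control 2. CCL5 had 18 and 16 counts with baicalein and 11 and 7 in controls, and did not pass (0.95, SE 0.44, adjusted p = 0.055). CXCL8, the gene of interleukin-8, had 7 and 6 counts with baicalein and 0 in both controls. CCL20 had 12 and 7 counts with baicalein, against 0 and 2 in controls. CCL2 had 6 and 5 counts with baicalein and 13 and 7 in controls. Both baicalein libraries lay above both controls in CXCL3, CCL5, CXCL8 and CCL20, and below them in CCL2. Over all tested genes the shares were 43.4% above and 43.5% below. Groups that did not overlap were thus the usual outcome (86.9%).

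Among immune receptor genes, TNFRSF9, which codes for the receptor 4-1BB, was not tested and had 13 and 5 counts with baicalein and 0 in both controls. TNFRSF1B, the second receptor gene of tumour necrosis factor, was tested and fell, with 1 and 4 counts with baicalein and 23 and 24 in controls (log2 fold change -3.12, SE 0.57, adjusted p = 3.56e-05 in edgeR's quasi-likelihood test). Its value was -2.18 without baicalein 1 and -4.58 without baicalein 2. TNFRSF1B passed the filter on counts only through its control libraries, so a fall was the only change it could show.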
